A study of Mus musculus with 26 samples.

Results

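Transcripts of 10 genes that release fatty acids from neutral lipids, phospholipids and endocannabinoids were examined in mouse keratinocytes: Abhd5, Pnpla1, Pnpla2, Pnpla6, Mgll, Faah, Lipe, Lipk, Lipm and Lipn. They were chosen by symbol, as lipases and hydrolases with a known place in epidermal or endocannabinoid lipid metabolism, and make up 10 of the 56738 symbols in the deposited count table. All 10 were in the table and passed the filter on low counts, which asks for a mean normalized count above 10 and left 16893 genes for testing. Lipk, Lipm and Pnpla6 under basal conditions, and Abhd5, Faah, Lipm and Mgll with cytokines, had been singled out by the study on these same libraries. Neither the direction of their genotype differences nor the number of them called is therefore independent evidence.

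Primary keratinocytes were taken from neonatal C57BL/6NJ mice aged 2 days, 5 of them wild type (WT) and 8 of them lacking the phospholipase gene Pla2g4d (KO), through a CRISPR-Cas9 deletion that includes its exon 3. The cells were grown for 4 days in low-calcium medium (0.06 mM CaCl2), in which most keratinocytes stay undifferentiated. Cells of each mouse were then left under basal conditions or received IL17A and TNFα, each at 20 ng/ml, for 24 h, a cytokine pair used to model psoriatic inflammation. This gave 4 groups, WT basal (n = 5), WT with cytokines (n = 5), KO basal (n = 8) and KO with cytokines (n = 8), with a median total count per library of 55635255, 57187471, 55265592 and 47544479.5. Wells of the same animal were pooled before RNA extraction. By the study's methods, the knockout line was bred homozygously after backcrossing. A difference between genotypes can therefore not be told apart from one between litters or breeding lines.

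In most cells, triacylglycerol is cleaved stepwise: the lipase encoded by Pnpla2, activated by the protein of Abhd5, removes the first fatty acid, hormone-sensitive lipase (Lipe) acts on the diacylglycerol, and monoacylglycerol lipase (Mgll) completes the breakdown. In the epidermis, the enzyme encoded by Pnpla1 works together with that of Abhd5 to transfer linoleic acid from triacylglycerol onto ω-hydroxyceramides, which builds the acylceramides of the water barrier, and loss of either gene causes ichthyosis. Mgll and Faah also end the signal of the endocannabinoids 2-arachidonoylglycerol and anandamide, while Lipk, Lipm and Lipn belong to the acid lipase family and are expressed late in keratinocyte differentiation.

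Levels are given as CPM, counts scaled to the same library total after TMM normalization. Compared per kilobase of the longest annotated transcript, the members spanned a wide range in WT basal cells. Lipm was highest at 32.6 ± 8.65 CPM per kb (mean ± SD, n = 5), followed by Abhd5 at 23.8 ± 2.51, a gap within their spread. Pnpla2 (11.9 ± 0.992 CPM per kb), Pnpla1 (10.4 ± 3.35) and Mgll (8.83 ± 1.20) came next, each within the summed SDs of the gene beside it in this order, though Pnpla2 and Mgll lay farther apart than that. Pnpla6 (6.25 ± 0.505 CPM per kb), Lipk (5.56 ± 2.18) and Lipe (5.32 ± 1.5) formed a further close group. Lipn at 1.38 ± 0.386 and Faah at 0.586 ± 0.0937 CPM per kb stood lowest, each apart from the gene before it. With cytokines, Abhd5 moved ahead of Lipm in WT (28.5 ± 2.85 against 22.4 ± 4.65 CPM per kb, again within the spread) and Lipe reached 16.1 ± 4.60. With the union of all exons as the length, Lipm stayed first in WT with cytokines and Pnpla1 was first in KO with cytokines, whereas Faah was last in all 4 groups with both lengths.

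**Figure D1:**
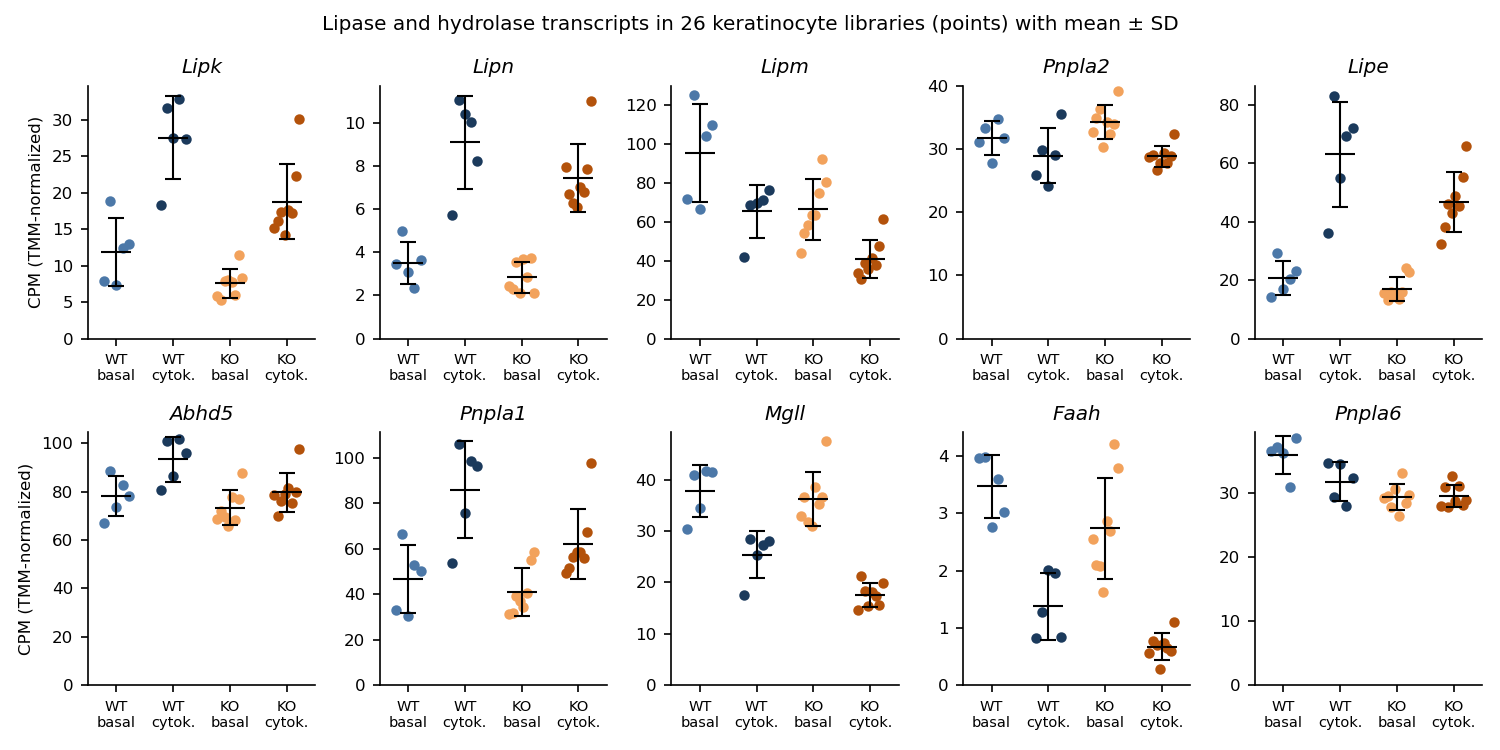
Level of each of the 10 genes in CPM (vertical axis, from 0) in the 26 libraries, by group; points are single libraries and black bars show the mean ± SD of 5 WT or 8 KO libraries. Lipk, Lipn, Lipe and Pnpla1 stood higher with cytokines, and Lipm, Mgll and Faah stood lower, in both genotypes.

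A few libraries were high or low for many members at once. WT replicate 1 with cytokines gave the lowest value of its group for 8 of the 10 genes, and KO replicate 8 with cytokines gave the highest for 8 of 10. WT replicate 2 was highest for 7 of 10 under basal conditions. The same libraries stood at the edges for a list of 15 suprabasal keratinocyte markers (Krt1, Krt10, Flg and others): their summed level was 2643 CPM in WT replicate 1 and 4928 CPM in KO replicate 8 with cytokines, the lowest of 5 and the highest of 8. The part of differentiation in them was not tested.

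Cytokines moved most of the members. In WT cells 9 of the 10 genes passed an adjusted p of 0.1 (the quasi-likelihood test of edgeR, adjusted after Benjamini-Hochberg over all 16893 genes), against 36.8% of all genes tested. Lipe, Lipn, Lipk, Pnpla1 and Abhd5 rose, where 18.8% of all genes did, and Faah, Mgll, Lipm and Pnpla6 fell, where 18% did. In KO cells 8 of 10 passed, against 35.8% of all genes, with 4 higher (17.7% of all genes) and 4 lower (18.1%). With a fold change over 1.5 as a further condition, 5 of 10 passed in WT (13.9% of all genes) and 7 of 10 in KO (10.9%). The median log2 fold change over the 10 members was 0.06 in WT and 0.07 in KO, beside 0.01 and 0.00 over all genes, with rises and falls of both kinds. In bulk RNA, fewer cells of a type and less RNA per cell cannot be told apart.

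**Figure D2:**
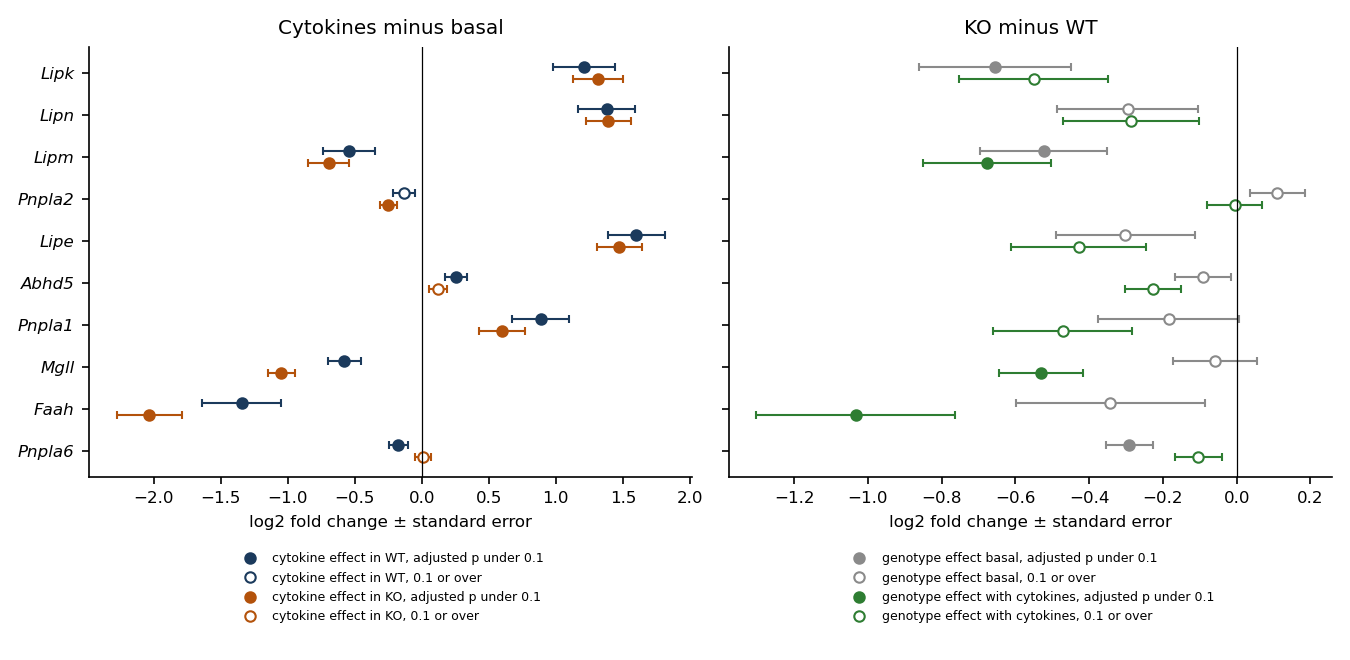
Log2 fold change of each gene (horizontal axis) with its standard error, for cytokines minus basal in WT and KO cells (left) and for KO minus WT under basal conditions and with cytokines (right). Filled points have an adjusted p under 0.1. The cytokine effects spread from -2.03 for Faah in KO to 1.60 for Lipe in WT, while every called genotype difference lay below 0.

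The acid lipase genes Lipk, Lipn and Lipm lie side by side on the plus strand of chromosome 19 (GRCm39), at chr19:33985685-34025235, chr19:34044758-34063345 and chr19:34078333-34100087, with 10 exons each. Gaps of 19522 and 14987 bp separate them, with 0 other protein-coding genes in between. The neighbours did not move together: Lipk and Lipn rose with cytokines and Lipm fell. Because they differ in direction, their promoters are shown here, from 250 bases before to 50 bases after the start of the canonical GENCODE transcript, read 5′ to 3′ from the plus strand at chr19:33985435-33985734 (Lipk), chr19:34044508-34044807 (Lipn) and chr19:34078083-34078382 (Lipm). Capitals mark the letters TGANTCA, bound by AP-1 factors.
Lipk: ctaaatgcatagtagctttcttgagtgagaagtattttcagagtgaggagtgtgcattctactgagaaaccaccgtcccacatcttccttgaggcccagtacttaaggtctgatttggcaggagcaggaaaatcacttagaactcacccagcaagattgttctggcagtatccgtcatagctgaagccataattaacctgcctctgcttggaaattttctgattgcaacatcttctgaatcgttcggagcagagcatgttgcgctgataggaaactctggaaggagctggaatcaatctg
Lipn: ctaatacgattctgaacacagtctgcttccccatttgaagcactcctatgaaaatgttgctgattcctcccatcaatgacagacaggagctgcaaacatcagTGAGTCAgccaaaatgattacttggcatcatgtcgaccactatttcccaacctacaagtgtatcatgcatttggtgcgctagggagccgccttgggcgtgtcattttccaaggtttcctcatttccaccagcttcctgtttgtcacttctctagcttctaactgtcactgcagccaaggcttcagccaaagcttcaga
Lipm: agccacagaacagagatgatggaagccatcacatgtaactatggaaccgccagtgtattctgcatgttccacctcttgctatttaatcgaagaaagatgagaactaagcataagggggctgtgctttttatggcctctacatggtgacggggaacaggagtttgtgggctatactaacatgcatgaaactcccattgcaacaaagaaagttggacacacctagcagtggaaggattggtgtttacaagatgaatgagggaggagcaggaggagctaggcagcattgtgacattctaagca
The AP-1 letters read the same on both strands and were found once in the Lipn window, starting 148 bases before the transcript start, and in neither of the others. Of the other members, the window of Faah, which fell with cytokines, also held them, 235 bases before its start. Of 21770 promoter windows of the same length, 7.14% hold them. The E-box CACGTG (7.81% of windows), the GRHL letters AACCGGTT (0.147%) and the TATA box TATAAA on either strand (13.2%) were in none of the 3 windows. A match or its absence describes these letters only.

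Lipk, an acid lipase of the granular layer, stood at 7.86, 18.9, 7.36, 12.4 and 13 CPM in WT basal replicates 1 to 5 and at 18.3, 31.6, 27.5, 32.9 and 27.4 CPM in the same mice with cytokines. In KO cells it ranged from 5.24 to 11.4 CPM under basal conditions (median 7.79, n = 8) and from 14.2 to 30.1 CPM with cytokines (median 17.3). Every mouse showed a rise, and only WT replicate 2 under basal conditions reached into the range of the WT libraries with cytokines. Its rise on the log2 scale was 1.21 in WT (standard error, SE, of 0.23, adjusted p = 0.000126) and 1.31 in KO (SE 0.18, adjusted p = 1.48e-06). Between genotypes, Lipk was lower in KO under basal conditions by a log2 fold change of -0.65 (SE 0.21, adjusted p = 0.0423), and 3 of 8 KO libraries lay below every WT library. That call was lost without WT replicate 2 (log2 fold change -0.42, adjusted p = 0.25) or WT replicate 5 (-0.63, adjusted p = 0.109), and over all 21 alternatives its adjusted p lay between 0.00928 and 0.25. With cytokines the difference was -0.55 (SE 0.20, adjusted p = 0.175), and it passed without WT replicate 1 (adjusted p = 0.034) or KO replicate 8 (0.0495), and when only the groups compared were fitted (0.0807), within a range from 0.034 to 0.393 over all alternatives.

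Lipn, another acid lipase of differentiating keratinocytes, gave 3.45, 5.00, 3.08, 2.33 and 3.64 CPM in WT basal replicates 1 to 5 and 5.72, 11.1, 10.4, 10 and 8.23 CPM with cytokines. In KO cells the values lay between 2.09 and 3.73 CPM (median 2.66, n = 8) and between 6.09 and 11 CPM (median 6.90). No basal library reached any treated library of its genotype. Lipn rose by a log2 fold change of 1.38 in WT (SE 0.21, adjusted p = 6.08e-06) and 1.39 in KO (SE 0.17, adjusted p = 1.15e-07). The genotypes overlapped in both conditions, with log2 differences of -0.30 (adjusted p = 0.386) under basal conditions and -0.29 (adjusted p = 0.496) with cytokines.

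Lipm went the other way. In WT cells it measured 71.4, 125, 66.4, 104 and 109 CPM in basal replicates 1 to 5 and 41.7, 68.3, 69.6, 71.2 and 76.2 CPM with cytokines. In KO cells it lay between 43.9 and 92.4 CPM (median 63.4, n = 8) and, with cytokines, between 30.8 and 61.5 CPM (median 38.2). It decreased within 4 of 5 WT mice and 8 of 8 KO mice, WT replicate 3 being the exception with a log2 change of 0.07. The change came to a log2 value of -0.54 in WT (SE 0.19, adjusted p = 0.0332), no longer called without WT replicate 2 (-0.45, adjusted p = 0.124; range over all alternatives 0.000351 to 0.124), and -0.70 in KO (SE 0.15, adjusted p = 0.000777).

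Lipm was also the single member called lower in KO under both conditions. Of the 8 KO libraries, 5 lay below all WT libraries under basal conditions and 6 with cytokines. The log2 fold change between genotypes was -0.52 under basal conditions (SE 0.17, adjusted p = 0.054) and -0.68 with cytokines (SE 0.17, adjusted p = 0.0511). Both calls were close to the threshold. The basal Lipm call was lost without WT replicate 2 (adjusted p = 0.21), WT replicate 4 (0.137), WT replicate 5 (0.149) or KO replicate 1 (0.11). The Lipm call with cytokines was lost without WT replicates 2 (0.108), 3 (0.128), 4 (0.153) or 5 (0.149), or KO replicates 2 (0.113), 5 (0.104) or 6 (0.109). Over all mice left out, the difference stayed between -0.63 and -0.41 under basal conditions and between -0.80 and -0.61 with cytokines. The adjusted p of Lipm over all alternatives ranged from 0.0116 to 0.21 and from 0.00377 to 0.153.

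The 3 neighbours thus changed their proportions. The CPM ratio of Lipk to Lipm, which compares groups and not gene levels, was 0.122 ± 0.0169 (mean ± SD, n = 5) in WT basal cells and 0.423 ± 0.0449 with cytokines, and 0.115 ± 0.0191 (n = 8) and 0.458 ± 0.0382 in KO cells. That of Lipn to Lipm went from 0.0381 ± 0.0106 to 0.139 ± 0.0200 in WT and from 0.0444 ± 0.0127 to 0.185 ± 0.0267 in KO. For Lipk to Lipm, no ratio of a treated library fell within the range of the basal libraries of its genotype. Of the 9 acid lipase genes in the table, 5 were tested. Outside the 3 neighbours, Lipo3 was called, higher with cytokines in WT (log2 fold change 0.31, adjusted p = 0.0692), and the lysosomal acid lipase Lipa stood at 9.35 CPM in WT basal and 9.33 CPM with cytokines (adjusted p = 0.989). The median log2 fold change of the 5 tested genes was 0.31 in WT and 0.14 in KO with cytokines, and -0.30 and -0.29 for the genotype under basal conditions and with cytokines.

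Most of the listed suprabasal markers fell where Lipk and Lipn rose. Of the 15 suprabasal markers, 10 fell and 0 rose with cytokines in WT, where 18% of all genes fell and 18.8% rose. In KO 11 fell and 1 rose, where 18.1% and 17.7% of all genes did. The median log2 fold change of the markers was -0.98 in WT and -1.18 in KO. Krt1, a keratin of the first suprabasal layer, went from 1522 ± 350 to 75.0 ± 19.1 CPM in WT (log2 fold change -4.34, adjusted p = 1.63e-14). Krt10, its partner, had log2 fold changes of -5.00 in WT and -5.64 in KO, and the granular protein gene Flg of -2.61 and -2.84. The summed level of the list was 5768, 10957, 6837, 9294 and 8239 CPM in WT basal replicates 1 to 5 and 2643, 5789, 4505, 5141 and 5256 CPM with cytokines. In KO cells it ran from 4867 to 9640 CPM (median 5349) under basal conditions and from 2377 to 4928 CPM (median 2857) with cytokines. Asprv1 was the most abundant gene of the list in all 4 groups and was not called (log2 fold change 0.31, adjusted p = 0.343 in WT), Tgm1 was the marker that rose in KO (0.40, adjusted p = 0.0088), and no marker was at 0. The list holds no cornified envelope genes of the Sprr and Lce families, so it does not stand for all of differentiation. Of these, the study reports Sprr2e, Sprr2f, Lce3a and Lce3b as strongly raised by the cytokines in both genotypes. Sprr2h rose by a log2 fold change of 1.56 in WT (adjusted p = 1.22e-07) and 1.53 in KO (adjusted p = 1.75e-09). The part of differentiation in the lipase values was not tested.

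The listed suprabasal markers also differed between genotypes beside Lipk and Lipm. All 15 had a fold change below 0 in KO, with a median log2 fold change of -0.41 under basal conditions and -0.64 with cytokines. Of them, 6 and 8 were called, where 6.06% and 1.62% of all genes were called lower. Krt1 was lower by a log2 fold change of -0.75 (adjusted p = 0.00776) under basal conditions and -1.42 (adjusted p = 0.000146) with cytokines. Of 7 basal keratinocyte markers, 2 were called higher and 0 lower in KO under basal conditions, and none with cytokines, where 13.6% and 2.84% of all genes were called. Their summed level was 42814 ± 2100 CPM (n = 5) in WT basal and 42596 ± 2018 CPM (n = 8) in KO basal cells, with Krt5 as the most abundant gene. With cytokines it was 34164 ± 1063 CPM in WT and 34392 ± 502 CPM in KO. Cytokines raised 1 and lowered 3 of these markers in WT (18.8% and 18% of all genes), and raised 2 and lowered 3 in KO (17.7% and 18.1%).

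For triacylglycerol breakdown, the first and the next step responded differently. Pnpla2, which encodes adipose triglyceride lipase, gave 31.2, 33.4, 27.8, 34.8 and 31.8 CPM in WT basal replicates 1 to 5 and 26, 29.9, 24.3, 29.2 and 35.6 CPM with cytokines. In KO it lay between 30.4 and 39.3 CPM (median 34.2) and between 26.7 and 32.4 CPM (median 28.8), and basal and treated libraries overlapped in both genotypes. It fell slightly in KO with cytokines (log2 fold change -0.25, standard error 0.07, adjusted p = 0.00396), in 8 of 8 mice. In WT the value was -0.13 (adjusted p = 0.243), and 4 of 5 mice were lower. Replicate 5 was the exception there, and without it the WT change passed (-0.23, adjusted p = 0.0411), as it did with the mouse as a block, a fit that pairs both libraries of a mouse (-0.14, adjusted p = 0.0921), while the range over all alternatives was 0.0411 to 0.489. The genotypes overlapped, with log2 differences of 0.11 (adjusted p = 0.419) under basal conditions and -0.01 (adjusted p = 0.986) with cytokines.

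Lipe, hormone-sensitive lipase, gave 14.3, 29.4, 16.9, 20.5 and 23.3 CPM in WT basal replicates 1 to 5 and 36.3, 83.0, 55.0, 69.4 and 72.0 CPM with cytokines. The KO libraries ranged from 13.2 to 24.1 CPM (median 15.6) under basal conditions and from 32.5 to 65.8 CPM (median 45.8) with cytokines. Every treated library exceeded every basal library of its genotype. The log2 fold change was 1.60 in WT (SE 0.21, adjusted p = 5.7e-07) and 1.47 in KO (SE 0.17, adjusted p = 3.63e-08). Between genotypes it differed by -0.30 (adjusted p = 0.367) under basal conditions and -0.43 (adjusted p = 0.255) with cytokines, the latter passing without WT replicate 1 (adjusted p = 0.0293; range over all alternatives 0.0293 to 0.537). As Lipe rose and Pnpla2 did not, their CPM ratio went from 0.653 ± 0.160 to 2.17 ± 0.509 in WT and from 0.492 ± 0.108 to 1.62 ± 0.294 in KO. Lipe and Pnpla2 are also abundant in fat cells. Of 7 adipocyte markers, 6 had a mean under 1 CPM in each group, Plin1 and Adipoq reaching at most 0.0256 and 0.0432 CPM. The exception was Fabp4, which rose from 6.15 ± 2.56 to 26.4 ± 9.35 CPM in WT (log2 fold change 2.10, adjusted p = 8.48e-07), as Lipe did. Of 7 sebocyte markers, 5 were tested, and 1 rose and 1 fell in each genotype, beside 36.8% of all genes called in WT and 35.8% in KO. The one that rose with Lipe was the most abundant, Cidea, from 8.59 to 18.9 CPM in WT (log2 fold change 1.14, adjusted p = 0.00169) and in KO (0.56, adjusted p = 0.0502). Krt79 changed more and went the other way, by a log2 fold change of -2.09 in WT (adjusted p = 0.00114) and -3.37 in KO (adjusted p = 1.19e-07). The summed sebocyte level in WT was 14.4 ± 2.33 CPM under basal conditions and 23.6 ± 6.44 CPM with cytokines (KO 14.5 ± 3.08 and 16.4 ± 3.51 CPM), and Elovl3 was at 0 in WT with cytokines and in KO basal cells. The part of fat cells or sebocytes in the Lipe and Pnpla2 values was not tested.

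Abhd5 encodes the coactivator that serves both Pnpla2 and Pnpla1. It stood at 67.2, 88.5, 73.9, 83.0 and 78.5 CPM in WT basal replicates 1 to 5 and at 80.8, 101, 86.6, 102 and 96.2 CPM with cytokines. All 5 WT mice rose, by a log2 value between 0.19 and 0.30. In KO it lay between 66.0 and 87.8 CPM (median 70.8) and between 70.0 and 97.7 CPM (median 78.9), and 7 of 8 mice were higher with cytokines. On the log2 scale the change was 0.26 in WT (SE 0.08, adjusted p = 0.0204). In KO it was 0.12 (SE 0.07, adjusted p = 0.187), called only with the mouse as a block (0.12, adjusted p = 0.00967; range over all alternatives 0.00967 to 0.323). With cytokines, 6 of 8 KO libraries lay below all WT libraries, a log2 difference of -0.23 (SE 0.08, adjusted p = 0.133). That difference passed without WT replicate 1 (adjusted p = 0.0202) or KO replicate 8 (0.0183), with DESeq2 (0.0886), and when only the groups compared were fitted (0.0927), within a range from 0.0183 to 0.339. Under basal conditions it was -0.09 (adjusted p = 0.527). The CPM ratio of Abhd5 to Pnpla2 was 2.46 ± 0.210 in WT basal cells and 3.25 ± 0.354 with cytokines, against 2.14 ± 0.121 and 2.76 ± 0.171 in KO.

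Some droplet proteins changed with cytokines, while no change passed for the inhibitors of Pnpla2. G0s2, which blocks the lipase, had a mean of 0.0237 CPM in WT basal and 0.156 CPM in WT with cytokines and did not pass the filter. Hilpda, another inhibitor, was at 4.68 ± 0.899 and 5.22 ± 0.502 CPM in WT (adjusted p = 0.481). Among the perilipins, which coat lipid droplets, Plin2 rose from 321 ± 56.2 to 599 ± 134 CPM in WT (log2 fold change 0.90, adjusted p = 2.6e-06) and from 354 ± 43.7 to 575 ± 58.1 CPM in KO (0.70, adjusted p = 3.05e-06). Plin3 measured 220 and 209 CPM in WT (adjusted p = 0.467), and Plin1, Plin4 and Plin5 were under the filter. Of the 8 tested genes of this list, 2 rose and 2 fell in WT and 2 rose and 3 fell in KO, where 36.8% and 35.8% of all genes were called, with a median log2 fold change of -0.08 and -0.04. For the genotype, 1 was called under basal conditions, Bscl2 (log2 fold change -0.23, adjusted p = 0.0284), and none with cytokines, beside 13.6% and 2.84% of all genes. Transcripts for triacylglycerol synthesis changed in both directions: of 15 tested genes, 8 rose and 4 fell in WT (18.8% and 18% of all genes). In KO 7 rose and 4 fell (17.7% and 18.1% of all genes). Lpin2, a phosphatidate phosphatase, went from 54.0 ± 9.93 to 232 ± 74.1 CPM in WT (log2 fold change 2.10, adjusted p = 2.81e-10), and the acyltransferase gene Dgat2 rose by 0.71 (adjusted p = 0.0014). Agpat4, which acylates lysophosphatidic acid, fell from 21.6 ± 6.31 to 6.38 ± 0.673 CPM in WT (log2 fold change -1.76, adjusted p = 1.2e-07) and in KO (-1.75, adjusted p = 1.8e-09). In KO basal cells 2 of the 15 were higher and 4 lower than in WT, where 13.6% of all genes were called. With cytokines only Dgat1 was called, lower in KO (log2 fold change -0.30, adjusted p = 0.09), beside 2.84% of all genes.

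Pnpla1, the transacylase of acylceramide synthesis, gave 32.9, 66.6, 30.3, 52.7 and 50.2 CPM in WT basal replicates 1 to 5 and 53.5, 106, 75.8, 98.3 and 96.4 CPM with cytokines. In KO it lay between 31.3 and 58.5 CPM (median 38.1) and between 49.4 and 97.7 CPM (median 57.6). All 13 mice rose, although the ranges of basal and treated libraries overlapped in both genotypes, since the mice differed widely. Its rise on the log2 scale was 0.89 in WT (SE 0.21, adjusted p = 0.00167) and 0.60 in KO (SE 0.17, adjusted p = 0.0068). Between genotypes the difference was -0.18 (adjusted p = 0.635) under basal conditions and -0.47 (SE 0.19, adjusted p = 0.218) with cytokines. The latter passed without WT replicate 1 (adjusted p = 0.036) or KO replicate 8 (0.0454), with a range over all alternatives from 0.036 to 0.439.

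Other genes of the acylceramide pathway moved mostly upward with cytokines. Of 15 tested, 8 rose and 2 fell in WT (18.8% and 18% of all genes). In KO 9 rose and 3 fell (17.7% and 18.1% of all genes). The median log2 fold change of the 15 was 0.27 in WT and 0.23 in KO. Alox12b, a lipoxygenase that oxidizes acylceramides, went from 23.7 ± 7.77 to 53.5 ± 11.6 CPM in WT (log2 fold change 1.17, adjusted p = 0.00041). Acsl1, an acyl-CoA synthetase, fell from 85.4 ± 14.3 to 23.2 ± 1.39 CPM (log2 fold change -1.88, adjusted p = 2.11e-14). Between genotypes all 15 had a fold change below 0 in both conditions. Their median log2 fold change was -0.27 and -0.26 beside 0.00 and -0.01 over all genes. Of the 15, 6 were called under basal conditions and 2 with cytokines, where 6.06% and 1.62% of all genes were called lower. Acsl1 was among them, with -0.55 (adjusted p = 0.000111) under basal conditions and -0.32 (adjusted p = 0.0776) with cytokines, and the ceramidase gene Acer1, with -0.55 (adjusted p = 0.0861) and -0.73 (adjusted p = 0.0696). Pnpla1 shared this direction without being called. The 15 suprabasal markers were all lower in KO as well, with a median log2 fold change of -0.41 under basal conditions and -0.64 with cytokines. Their part in the acylceramide values was not tested.

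**Figure D3:**
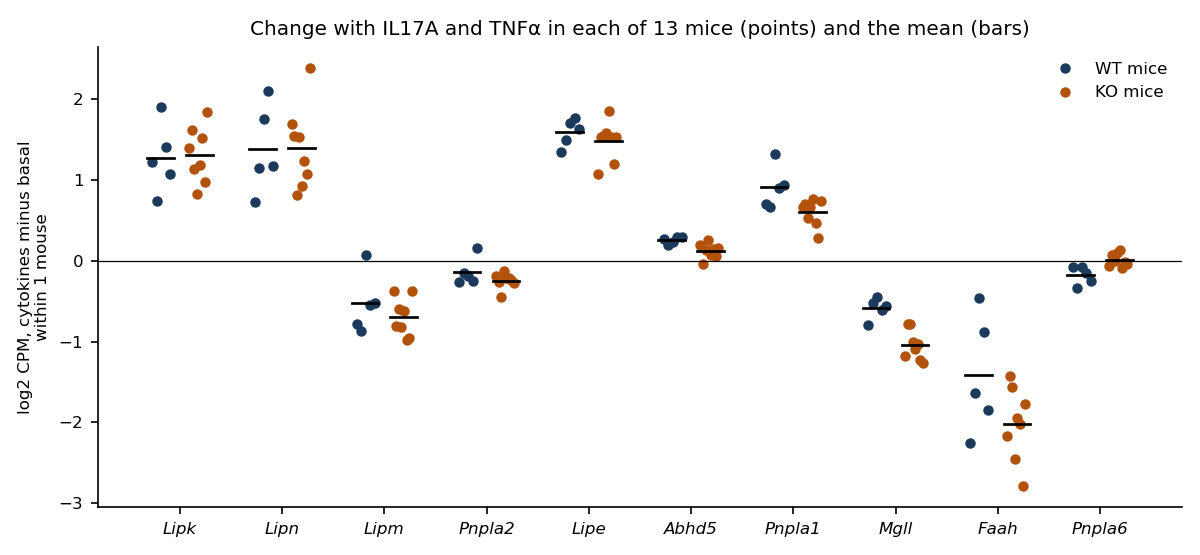
Change in log2 CPM with cytokines within each mouse (vertical axis) for the 10 genes; points are 5 WT and 8 KO mice and bars are the mean. Lipk, Lipn, Lipe and Pnpla1 lie above 0 and Mgll and Faah below 0 in all 13 mice, and the Mgll points of KO mice lie mostly under those of WT mice.

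The endocannabinoid hydrolases both fell. Mgll, which encodes monoacylglycerol lipase, gave 30.3, 40.9, 34.5, 41.6 and 41.6 CPM in WT basal replicates 1 to 5 and 17.5, 28.5, 25.4, 27.3 and 28.1 CPM with cytokines. In KO it lay between 31.0 and 47.6 CPM (median 35.9) under basal conditions and between 14.6 and 21.2 CPM (median 17.7) with cytokines. No treated library reached a basal library of its genotype. The change came to a log2 value of -0.58 in WT (SE 0.13, adjusted p = 0.000645) and -1.05 in KO (SE 0.10, adjusted p = 1.58e-09).

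Mgll was lower in KO with cytokines but passed no test between genotypes under basal conditions. The basal difference was -0.06 (SE 0.11, adjusted p = 0.819). With cytokines it was -0.53 (SE 0.11, adjusted p = 0.019), and 4 of 8 KO libraries lay below every WT library, the low WT replicate 1 included. This call held without any 1 of the 13 mice. The interaction, which tests whether the fall itself differed between genotypes, was -0.47 (SE 0.16, unadjusted p = 0.00652, adjusted p = 0.269 in edgeR's quasi-likelihood test). With the mouse as a block, which pairs both libraries of a mouse, the interaction was -0.46 (SE 0.09, adjusted p = 0.0118), and without WT replicate 1 it was -0.50 (adjusted p = 0.0863). Over all 21 alternatives the adjusted p of this interaction lay between 0.0118 and 0.516.

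Over the 26 libraries, the genes with the pattern most like Mgll were Pmel, Dct and Mitf, with a root mean square difference of 0.131, 0.143 and 0.191 in log2 CPM after centring each gene (11854 genes compared), where Mgll itself had an SD of 0.511. Pmel and Dct encode melanosome proteins and Mitf a transcription factor of melanocytes, the pigment cells that accompany keratinocytes in culture. The CPM ratio of Mgll to Pmel was 0.220 ± 0.0157 (n = 5) in WT basal cells, 0.207 ± 0.00690 in WT with cytokines, 0.220 ± 0.0111 (n = 8) in KO basal cells and 0.215 ± 0.0317 in KO with cytokines, where single libraries ran from 0.170 to 0.263. Since Pmel was picked for its small difference from Mgll, the closeness of these means restates that choice. Pmel itself fell with cytokines in WT (log2 fold change -0.49, adjusted p = 0.00457) and KO (-1.0, adjusted p = 1.08e-08) and was lower in KO with cytokines by a log2 fold change of -0.57 (adjusted p = 0.0168).

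The list of 6 melanocyte markers, all of them tested, includes Pmel and Dct, which had been picked for their likeness to Mgll and count in each number given for it. With cytokines 3 of the 6 fell in WT and 5 in KO (18% and 18.1% of all genes), and 4 were called lower in KO with cytokines (1.62% of all genes), with a median log2 fold change of -0.31, -0.65 and -0.41. Under basal conditions none differed between genotypes at an adjusted p of 0.1, where 13.6% of all genes did. Their summed level was 429, 598, 523, 610 and 561 CPM in WT basal replicates 1 to 5 and 333, 475, 431, 461 and 462 CPM with cytokines. In KO it ran from 466 to 628 CPM (median 546) and from 306 to 404 CPM (median 331). Tyrp1 was the most abundant marker, none was at 0, and Sox10, which marks the lineage, stood at 7.84 CPM in WT basal cells and 8.94 CPM with cytokines (adjusted p = 0.249). The part of melanocytes in the Mgll values was not tested.

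The promoter of Mgll is shown because of that likeness, from 250 bases before to 50 after the start of its canonical transcript (plus strand, chr6:88701144-88701443, GRCm39), with the E-box letters CACGTG in capitals.
Mgll: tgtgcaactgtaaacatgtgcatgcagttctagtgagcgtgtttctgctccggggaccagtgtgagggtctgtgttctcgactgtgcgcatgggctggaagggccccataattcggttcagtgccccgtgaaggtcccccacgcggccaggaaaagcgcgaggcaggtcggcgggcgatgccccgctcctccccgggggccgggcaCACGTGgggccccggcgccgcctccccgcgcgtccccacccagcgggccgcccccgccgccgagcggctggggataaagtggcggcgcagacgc
The letters begin 44 bases before the transcript start. They are a description of the sequence, present in 7.81% of the 21770 windows, and among the 10 members only the Mgll window held them.

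**Figure D4:**
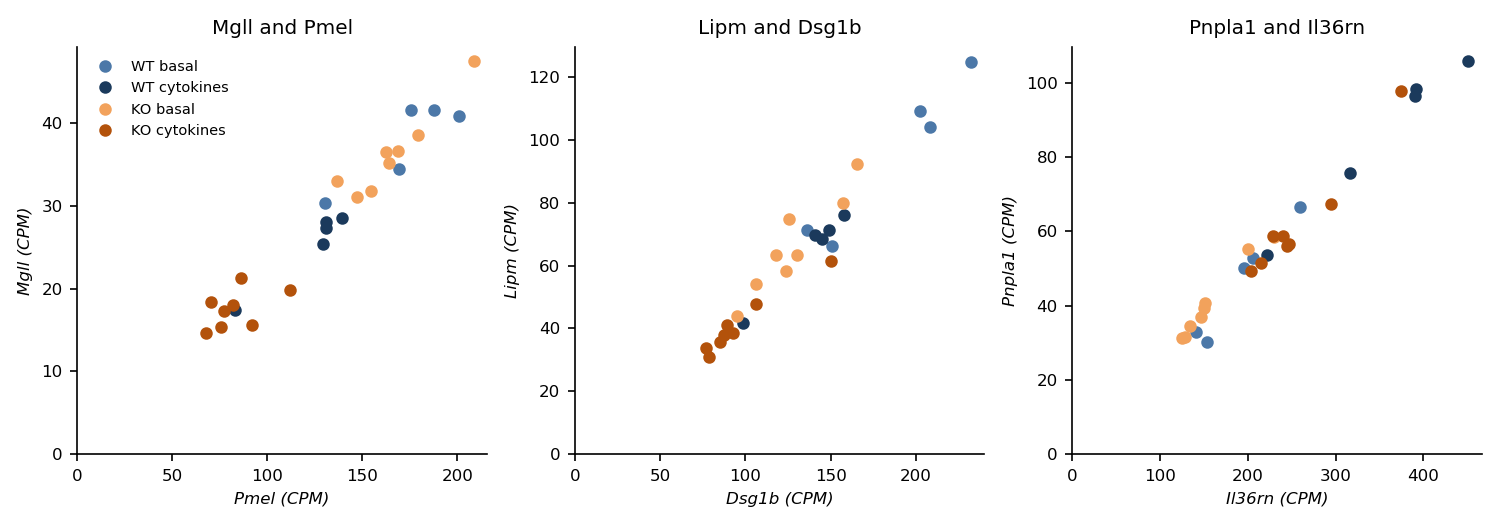
Level in CPM of Mgll against Pmel (left), Lipm against Dsg1b (middle) and Pnpla1 against Il36rn (right), each member with the tested gene most like it over 26 libraries; points are libraries, coloured by group, and both axes start at 0. Each partner was picked for its likeness. The ratio of Lipm to Dsg1b in KO was 0.463 to 0.596 in basal libraries and 0.391 to 0.460 with cytokines. In WT these ranges overlapped, at 0.440 to 0.540 and 0.423 to 0.494. No difference in the ratio was tested.

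Faah, which encodes fatty acid amide hydrolase, was the lowest of the members, with 18 to 229 counts per library, so that counting adds most to the spread of this gene. It gave 3.98, 3.99, 2.77, 3.60 and 3.03 CPM in WT basal replicates 1 to 5 and 0.819, 1.27, 2.01, 1.95 and 0.831 CPM with cytokines. In KO it lay between 1.62 and 4.22 CPM (median 2.62) and between 0.282 and 1.10 CPM (median 0.672). All 13 mice fell, and no treated library reached a basal library of its genotype. The log2 fold change was -1.34 in WT (SE 0.29, adjusted p = 0.000664) and -2.03 in KO (SE 0.24, adjusted p = 9.89e-08), the largest fall among the members.

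With cytokines, Faah was lower in KO by a log2 fold change of -1.03 (SE 0.27, adjusted p = 0.057), and 7 of 8 KO libraries lay below every WT library. The Faah call was lost without WT replicates 2 (adjusted p = 0.11), 3 (0.207) or 4 (0.203), or KO replicates 1 (0.107), 5 (0.103) or 6 (0.111). Over all mice left out, the difference stayed between -1.17 and -0.85, and the adjusted p over all alternatives between 0.00979 and 0.207. Under basal conditions it was -0.34 (SE 0.26, adjusted p = 0.473), 5 of the 8 KO values being below the WT range and 1 above it. The interaction was -0.69 (SE 0.38, adjusted p = 0.607).

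Around Mgll and Faah, 16 genes for endocannabinoid synthesis, hydrolysis and reception were tested. With cytokines 7 rose and 3 fell in WT, where 18.8% and 18% of all genes did. In KO 6 rose and 3 fell, where 17.7% and 18.1% of all genes did. The median log2 fold change of the 16 genes was 0.26 in WT and 0.16 in KO. Pla2g4e, the calcium-dependent N-acyltransferase that makes the precursors of anandamide, rose from 16.2 ± 4.84 to 112 ± 28.4 CPM in WT (log2 fold change 2.79, adjusted p = 7.41e-12) and from 14.2 ± 2.89 to 88.9 ± 19.8 CPM in KO (2.65, adjusted p = 1.04e-13). Dagla, a diacylglycerol lipase that makes 2-arachidonoylglycerol, rose from 0.283 ± 0.126 to 0.868 ± 0.372 CPM in WT (log2 fold change 1.62, adjusted p = 0.00725). The receptor genes Cnr2, Gpr55 and Trpv1 did not pass the filter, and Cnr1 had a mean of 0.704 CPM in WT basal cells. With cytokines, 1 of the 16 genes was lower in KO (1.62% of all genes), the fatty acid carrier Fabp5 (log2 fold change -0.45, adjusted p = 0.0154). Under basal conditions 3 were higher and 1 lower in KO, where 13.6% of all genes were called. The largest change among these was that of the prostaglandin synthase gene Ptgs2 (log2 fold change 0.65, adjusted p = 0.000418).

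Pnpla6 encodes neuropathy target esterase, a lysophospholipase of the endoplasmic reticulum. With cytokines it stood at 34.6, 29.4, 34.5, 27.9 and 32.3 CPM in WT replicates 1 to 5 and between 27.8 and 32.6 CPM (median 28.9) in KO. It fell in WT (log2 fold change -0.18, SE 0.07, adjusted p = 0.058), in 5 of 5 mice, a call lost without WT replicate 2 (adjusted p = 0.193) or 5 (0.147), with no filter (0.114) and when only the groups compared were fitted (0.125), with a range over all alternatives from 0.0167 to 0.193. In KO the change was 0.01 (SE 0.06, adjusted p = 0.931), with 3 of 8 mice higher. The genotype difference in Pnpla6 was -0.29 under basal conditions, from 35.9 ± 2.90 CPM in WT to 29.4 ± 2.02 CPM in KO (SE 0.06, adjusted p = 0.00296), where 7 of 8 KO libraries lay below every WT library, and was called without any 1 of the mice. With cytokines it was -0.10 (SE 0.06, adjusted p = 0.462), and the interaction was 0.19 (SE 0.09, unadjusted p = 0.0486, adjusted p = 0.543 in edgeR's quasi-likelihood test). Of the 6 patatin-like genes tested, which include Pnpla1, Pnpla2 and Pnpla6, 1 rose and 3 fell with cytokines in each genotype. Of all genes, 18.8% rose and 18% fell in WT, and 17.7% rose and 18.1% fell in KO. Pnpla8, a mitochondrial phospholipase, fell in WT (log2 fold change -0.22, adjusted p = 0.00579) and KO (-0.17, adjusted p = 0.00608), as did Pnpla3 (-1.26, adjusted p = 0.0117, and -0.86, adjusted p = 0.0318). Between genotypes 2 of the 6, Pnpla6 and Pnpla8, were lower in KO under basal conditions (6.06% of all genes). With cytokines 0 were called (2.84% of all genes).

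Taken as a group, the members were lower in KO cells more often than higher. Under basal conditions 3 of 10 were called, Lipk, Lipm and Pnpla6, against 13.6% of all genes, and all 3 were lower, as were 6.06% of all genes. With a fold change over 1.5 as well, Lipk alone passed, against 2.68% of all genes. With cytokines 3 of 10 were called, Faah, Lipm and Mgll, against 2.84% of all genes, again all lower (1.62% of all genes), and Faah and Lipm also passed the fold change of 1.5 (0.704% of all genes). The fold change was below 0 for 9 of 10 members under basal conditions and for 10 of 10 with cytokines, where Pnpla2, at -0.01, turned to 0.0055 with limma on the deposited log2 values. The median log2 fold change was -0.29 and -0.45, beside 0.00 and -0.01 over all genes. Every member called here had been singled out by the study on these same libraries. Neither the excess of calls over all genes nor these medians are thus independent evidence. The 15 suprabasal markers moved with them, all lower in KO, with a median of -0.41 under basal conditions and -0.64 with cytokines, and their part in the shift was not tested.

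The number called with cytokines depended on single mice: it was 7 of 10 without WT replicate 1, 6 without KO replicate 8, and 1 without WT replicate 2, 3 or 4 or KO replicate 5 or 6. The share of all genes called moved as well, to 12.3% without WT replicate 1, 6.58% without KO replicate 8, and between 0.634% and 1.15% without each of the other 5 mice just named. Under basal conditions 1 of 10 was called without WT replicate 2 or 5 (9.91% and 9.60% of all genes). For the interaction 0 of 10 members were called by edgeR's quasi-likelihood test, against 0.983% of all genes, and 2 had an unadjusted p under 0.05. DESeq2 and limma called 0 as well, but like that test they did not pair both libraries of a mouse. With the mouse as a block, Mgll alone was called (log2 value -0.46, adjusted p = 0.0118), as it was without WT replicate 1 (-0.50, adjusted p = 0.0863). A cytokine effect that passed in one genotype and missed in the other, as for Abhd5, Pnpla2 and Pnpla6, was thus not shown to differ between them.

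Of 12 tested genes for other neutral lipases, 4 rose and 3 fell with cytokines in WT, where 18.8% and 18% of all genes did. In KO 3 rose and 4 fell, where 17.7% and 18.1% of all genes did. Lipg, endothelial lipase, went from 44.4 ± 5.63 to 77.8 ± 12.0 CPM in WT (log2 fold change 0.81, adjusted p = 5.48e-08) and from 37.2 ± 3.95 to 85.2 ± 3.94 CPM in KO (1.19, adjusted p = 1.73e-13). Aadac, an arylacetamide deacetylase, fell from 3.31 ± 0.963 to 0.381 ± 0.135 CPM in WT (log2 fold change -3.11, adjusted p = 7.17e-08) and was lower in KO basal cells (-1.47, adjusted p = 0.00117). Abhd12, a hydrolase of lysophospholipids and, like Mgll, of monoacylglycerol, fell in WT (log2 fold change -0.60, adjusted p = 1.52e-07) and in KO (-0.49, adjusted p = 7.35e-08). Between genotypes 2 of the 12 were lower in KO under basal conditions (6.06% of all genes). With cytokines 1 was called, Nceh1, which was higher (log2 fold change 0.28, adjusted p = 0.0728), beside 2.84% of all genes called.

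Other members also had close counterparts over the 26 libraries. The gene most like Lipm was Dsg1b, a desmoglein of the upper epidermis (root mean square difference 0.15 in log2 CPM), followed by Egr3 and Pof1b. For Pnpla1 it was Il36rn, the antagonist of the IL-36 receptor (0.0943), followed by Mxd1 and Rnf222. For Lipe the order was Myzap (0.141), Sprr2h, a cornified envelope protein gene (0.143), and Prdm1 (0.18). Lipk was most like Nucb2 (0.248), Ceacam19 and Fam3b, and Lipn most like the chemokine gene Ccl20 (0.246), Ehf and Nucb2. Faah had the least close matches, with Defb1 at 0.401, the desmocollin Dsc1 at 0.415 and Penk at 0.443. Among the members themselves, Lipe and Lipk were the closest pair of those called with a fold change over 1.5 (0.26), and Lipm and Mgll came next (0.328).

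Remaining cell types were scarce by their markers. Of 6 fibroblast markers, the summed level was at most 7.43 CPM in any library, with Col1a2 or Pdgfra as the most abundant gene, and Col1a2 fell with cytokines in WT (log2 fold change -1.67, adjusted p = 0.0187). Of 7 immune cell markers 5 had a mean under 1 CPM in each group, and Cd207 was at 0 in all 4 groups. Lyz2 was the most abundant, at 4.24 CPM in WT basal and 8.52 CPM in KO basal cells (adjusted p = 0.182). Of 5 endothelial markers, Emcn was at 0 in all 4 groups and the summed level stayed between 1.37 and 5.96 CPM. Even so, Pecam1 rose with cytokines in WT (log2 fold change 1.68, adjusted p = 2.75e-05). It was also higher in KO under basal conditions (0.95, adjusted p = 0.0195). The part of these cells in the values of the 10 genes was not tested.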

How the data were processed

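Keratinocyte RNA was sequenced as stranded paired-end mRNA libraries. The authors aligned the reads to mm39 (GRCm39) with STAR 2.7.10b and counted them per gene with featureCounts 2.0.6 and GENCODE, as the submitters' processing notes and the study's methods state. They deposited raw counts for 56738 symbols, and a second table of log2 normalized counts, which was used here only for an alternative. Its values are log2 of the count over a size factor plus 1, apart from 50 symbols that differed by over 0.01. Per-mouse values come from 13 mice and 26 libraries with total counts of 42072745 to 78102858, deep enough that the spread between mice limits precision, with counting adding most for Faah.

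Genes with a mean normalized count over 10 entered the test in edgeR 4.0.16 under R 4.3.3 (TMM, quasi-likelihood fit of the 4 groups across all 16893 genes, no covariate, Benjamini-Hochberg adjustment over all of them). A gene was called at an adjusted p under 0.1, with 1.5 as a minimum fold change in a second rule. Standard errors were derived from the log2 fold change and the F statistic, and a prior count of 1 was added for log2 CPM. The 10 members and the other gene lists were chosen with earlier results of these data known. From each list at most 4 called genes with the largest change per comparison are named, plus the genes that act on Pnpla2; list genes named beyond this, such as Lipa, Sox10 and Cnr1, were picked after their values were seen. Genes most like a member were sought among those with a mean count over 100 for each member called with a fold change over 1.5.

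Positions, lengths and promoters were taken from GRCm39 and GENCODE vM39, a later release than the authors used. By this annotation no other gene overlaps a member's exons on the same strand.

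The same animal gave both libraries of a replicate number, so these numbers pair libraries within a genotype. Deviations of paired libraries from their group means correlated between 0.001 and 0.254 (median 0.106). No 2 libraries of a group were as alike as sampling noise would make them (lowest chi-square per degree of freedom 7.42). Alternatives were DESeq2 size factors, DESeq2 1.42.0, limma 3.58.1 on the deposited log2 values, filterByExpr or no filter, a fit of only the groups compared, other thresholds, the mouse as a block and each mouse left out. Litter, sequencing batch and the sex of each mouse were not given in the sources used here. As the knockout line was bred homozygously, genotype cannot be told apart from litter or breeding line. The study's supplement states that sex was not considered in the experiment.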

Additional observations from a re-analysis of the deposited data

Results flagged for a closer look

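In 6 of the 40 combinations of a gene and a group, the highest or lowest library lay farther from the rest than Dixon's 95% limit for its group size (0.71 of the range for 5 libraries, 0.526 for 8). Chance gives such a gap in about 1 in 20 groups, and the members are not independent of each other. KO replicate 8 accounts for 4 of them: Abhd5 with cytokines (97.7 CPM, next 81.5), Pnpla1 with cytokines (97.7 CPM, next 67.3), Lipn with cytokines (11 CPM, next 7.95) and Mgll under basal conditions (47.6 CPM, next 38.5). WT replicate 1 with cytokines gave the other 2, at the low end: Mgll at 17.5 CPM (next 25.4) and Lipm at 41.7 CPM (next 68.3). The reason these libraries stand apart was not tested.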

How the results depend on the processing

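Cytokine calls changed for single members: Lipm in WT was lost without WT replicate 2, Pnpla6 in WT without WT replicate 2 or 5, with no filter and with only the groups compared, and Pnpla2 in WT was gained without WT replicate 5. Across the alternatives the number called in WT stayed within 1.5 times of 9, except for 5 members with the fold change of 1.5 as well, and the number in KO stayed within 1.5 times of 8. Under basal conditions, 1 member was called for the genotype with the fold change of 1.5 as well, and between 1 and 3 with a mouse left out. With cytokines, 1 member was called for the genotype at an adjusted p under 0.05, 5 when only the groups compared were fitted, and between 1 and 7 with a mouse left out. The interaction gave 1 called member, Mgll, with the mouse as a replicate block, and between 0 and 1 with a mouse left out. The block changed 2 other member calls, Pnpla2 in WT and Abhd5 in KO, both newly passing.

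Of 1070 member results under an alternative, 1002 kept direction and side of the threshold, 36 were no longer called, 15 were newly called and 17 changed sign. Those that changed sign were never called. The Pnpla2 difference between genotypes with cytokines was 3.88e-05 when only the groups compared were fitted, 0.0055 with limma on the deposited log2 values, and between -0.057 and 0.081 with a mouse left out. The Pnpla6 change in KO ran from -0.014 to 0.020, the Lipn interaction from -0.14 to 0.17 and the Lipk interaction from -0.067 to 0.25 with a mouse left out. The cause was not tested, apart from the fewer samples or genes that an alternative itself uses. For the other named genes, 3079 of 3346 values kept their call, 267 lost it and 0 changed sign. DESeq2 size factors moved none of the 40 group levels by more than 1 SD, a floor of 10 left the most alike genes of all 7 members as they were, and the union of exons as length changed 21 of 40 places in the order by level. Depth matters most for Faah, with 18 counts in its lowest library.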
